A study of Mus musculus with 14 samples.

Results

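The genes described here encode the hydrolases, membrane proteins and proton pump of the lysosome. Members were the 33 genes of a fixed list of lysosomal enzymes, cofactors, membrane proteins and their regulator Tfeb, together with every gene whose symbol starts with Atp6v, the prefix of the vacuolar proton pump. All 33 listed genes were found and 18 genes carried the prefix, which gave 51 members among the 14329 genes measured, and 49 of them passed the filter on low counts (10 or more reads in 7 or more libraries of 14). Atp6v0e2 and Atp6v1c2 did not pass and were given no test.

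RNA was sequenced from microglia, the resident macrophages of the central nervous system. They were sorted as CD45low CD11b+ CX3CR1+ cells from the dorsal part of the spinal cord, with 2000 cells per sample. The gating scheme of the study also required cells to be negative for Ly6C and CCR2, which mark circulating monocytes. Mice were 6 months old, of both sexes, and either wild type (WT, C57BL/6) or TASTPM, a transgenic line whose heterozygous alleles include human APP bearing the Swedish mutation. Transgene expression comes from the murine Thy-1 promoter, which is known for its activity in neurons rather than microglia. WT mice came from the TASTPM breeding. Mice of each genotype received arthritis-inducing serum from K/BxN mice (K/BxN ST, where ST is serum transfer) or control serum pooled from KRN/C57 mice (Control ST), and tissue was taken on day 5. There were 4 K/BxN ST and 3 Control ST libraries of each genotype. The study's methods name individual mice as its biological replicates. The comparisons ask whether lysosomal genes of spinal microglia respond to arthritogenic serum in each genotype, whether that response differs between genotypes, and whether the genotypes differ under the same serum.

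Lysosomes break down material taken up by phagocytosis or delivered by autophagy, and microglia, as phagocytes, are rich in them. Their soluble hydrolases work in an acid lumen that is kept acid by the V-ATPase, a rotary pump whose cytosolic V1 sector burns ATP and whose V0 sector carries protons across the membrane. Many lysosomal genes are under the control of the transcription factor TFEB and its relatives, which bind a palindromic E-box, and inherited loss of single hydrolases or membrane proteins causes lysosomal storage disease.

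Each library held between 14223015 and 20239175 reads on genes (median 17081523). All 12 microglia markers examined, P2ry12, Tmem119 and Cx3cr1 among them, exceeded 3 reads in every library and together took 2.16 to 8.02% of reads. Reads of 19 monocyte and neutrophil markers made up 5.41% and 3.38% of TASTPM K/BxN ST libraries 1 and 2. For WT K/BxN ST libraries 1 and 2 the share was 5.18% and 3.14%. In the other 10 libraries the same share lay between 0.0578% and 0.139% (TASTPM Control ST 0.0745 to 0.139%, WT Control ST 0.0681 to 0.110%). All 19 markers exceeded 3 reads in 3 of these 4 libraries, whereas in WT K/BxN ST library 2 there were 15, with Ly6g and Mmp9 at 0. Between 7 and 13 markers exceeded 3 reads in each of the others, where Ly6g was at 0 in 9 of the 10 and S100a4 in 9. Microglia marker reads were also lowest in these 4 libraries, and the main results below are therefore also given without them. Dendritic cell markers made up 0.00619 to 0.0497% of reads in the 4 libraries and 0.000735 to 0.00196% in the other 10, and markers of border-associated macrophages made up 0.00793 to 0.0209% and 0 to 0.00623%. For astrocyte markers the shares were 0.012 to 0.0231% and 0.0211 to 0.0505%, and for dissociation and immediate early genes 0.0454 to 0.0949% and 0.027 to 0.0719%, which overlapped. All 4 libraries were rich in Y-linked transcripts (0.0113 to 0.0138% of reads) and poor in Xist. Without them the WT K/BxN ST group holds libraries 3 and 4, both rich in Xist. Libraries 1 and 2 of WT Control ST were rich in Y-linked transcripts, and library 3 held both kinds. Serum and sex therefore cannot be fully told apart in WT values given without the 4 libraries. The part of these other differences in the results was not tested. In a bulk sample fewer cells of a type and less RNA per cell cannot be told apart.

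The E-box CACGTG and its longer form GTCACGTG were searched on both strands in the 250 bases before and the first 50 bases after the start of the canonical transcript (GRCm39). CACGTG was found in 11 of 51 member promoters (21.6%) and in 9.34% of the promoters of all genes measured. GTCACGTG, which contains CACGTG, was found in 9 member promoters (17.6%) against 3.39% of all promoters. The full palindrome, in which AC follows GTCACGTG, was found in 0 of 51 members and in 0.477% of all promoters. By role, GTCACGTG was found in 7 of the 33 listed genes and 2 of the 18 pump genes. In the RefSeq promoters of build GRCm38.p6, which covered 42 members, the shares were 26.2% against 8.09% for CACGTG and 21.4% against 2.55% for GTCACGTG, and the full palindrome was found in 0 of 42 against 0.37%. A single window is shown for each of 6 members, with CACGTG in capitals:
Lamp1: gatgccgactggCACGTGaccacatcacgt
Mcoln1: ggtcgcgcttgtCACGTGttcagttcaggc
Naglu: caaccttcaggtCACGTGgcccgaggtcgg
Glb1: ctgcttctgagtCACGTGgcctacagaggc
Atp6v1h: ctcagctgcggtCACGTGcggctgctcacg
Atp6v0b: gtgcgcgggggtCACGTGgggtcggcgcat
The Lamp1 window lies at chr8:13209121-13209150 on the plus strand, just inside the first exon, where the promoter held 4 copies of CACGTG. Those of Mcoln1 (chr8:3550436-3550465, plus strand) and Naglu (chr11:100960835-100960864, plus strand) span or adjoin the transcript start. The Glb1 window (chr9:114230086-114230115, plus strand) lies upstream of the start, and the windows of Atp6v1h (chr1:5153300-5153329, plus strand) and Atp6v0b (chr4:117744545-117744574, minus strand) span it. These matches describe letters in a window and were not related to binding or to the changes below.

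Levels of the lysosomal genes in spinal microglia spanned a wide range. The 51 members took 2.89 to 4.20% of all reads in a library, with means of 3.94% ± 0.264 (SD, n = 3) and 3.68% ± 0.253 (n = 4) under control and K/BxN serum in WT, and of 3.77% ± 0.374 (n = 3) and 3.56% ± 0.484 (n = 4) in TASTPM. These groups overlapped. When normalized counts were divided by the length of the canonical transcript in kilobases (kb), 8 members were among the 100 highest genes, 21 among the 500 highest and 27 among the 1000 highest, while Sgsh, Gla, Atp6v1g2, Atp6v0e2 and Atp6v1c2 ranked between 6648 and 13618 of 14329. Levels between genes are compared only on this per-kb scale.

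The membrane proteins held many of the highest levels. Laptm5, a lysosomal membrane protein of haematopoietic cells, ranked 13th of all genes with a mean of 53718 normalized counts per kb. Cd68, the heavily glycosylated membrane protein used as a marker of phagocytic macrophages, averaged 19087 per kb. Lamp1 and Lamp2, the main glycoproteins lining the lysosomal membrane, averaged 15252 and 13151 per kb. Of the 2, Lamp1 took 49.9 to 57.0% of their summed per-kb level in every library. Laptm4a and the tetraspanin Cd63 averaged 6670 and 5591 per kb. Scarb2, the receptor that carries beta-glucocerebrosidase to lysosomes, averaged 1063 per kb. The cation channel Mcoln1 averaged 640 per kb and Npc1, the cholesterol exporter, 303 per kb.

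Among the enzymes and their cofactors, the lipid-handling group was led by Psap, the precursor of the saposins that present sphingolipids to hydrolases, at 36729 per kb. Hexa, the alpha subunit of beta-hexosaminidase A, followed with 12548, and Asah1, acid ceramidase, with 6597 per kb. At the bottom of this group was Gla, alpha-galactosidase A, at 69.2 per kb. The glycan and glycosaminoglycan enzymes were led by Man2b1, lysosomal alpha-mannosidase, at 6214 per kb and ended with Sgsh, the sulfamidase of heparan sulfate breakdown, at 102 per kb. Grn, the progranulin precursor of granulins, followed Psap among the members at 33696 per kb. Tpp1, a tripeptidyl peptidase, stood at 3018 and Tfeb at 492 per kb.

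The proton pump took 0.224 to 0.398% of reads. Its highest gene was Atp6v0c, the proteolipid that forms the rotating ring of the V0 sector, at 8365 per kb, followed by Atp6v0e at 5230 and Atp6v0b at 4779 per kb. The highest V1 genes were Atp6v1g1 at 2998 and Atp6v1f at 2455, while the catalytic subunit Atp6v1a averaged 407 and Atp6v1d 360 per kb. For 3 subunits that exist in paralogous forms the microglia used essentially 1 gene. Per kb, Atp6v1c1 made up 95.5 to 100% of Atp6v1c1 plus Atp6v1c2, Atp6v1g1 97.2 to 100% of the G pair and Atp6v0e 98.8 to 100% of the e pair over the 14 libraries. Among genes with the Atp6v prefix the a subunit was shared, with Atp6v0a2 at 47.7 to 68.2% of the summed per-kb level of Atp6v0a1 and Atp6v0a2. Any form of the a subunit without that prefix was not counted in this sum. The minor forms were low, with Atp6v1c2 at 0 to 40.9 normalized counts (0 in 3 libraries), Atp6v0e2 at 0 to 95.2 (0 in 4 libraries) and Atp6v1g2 at 0.94 to 140.

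**Figure D1:**
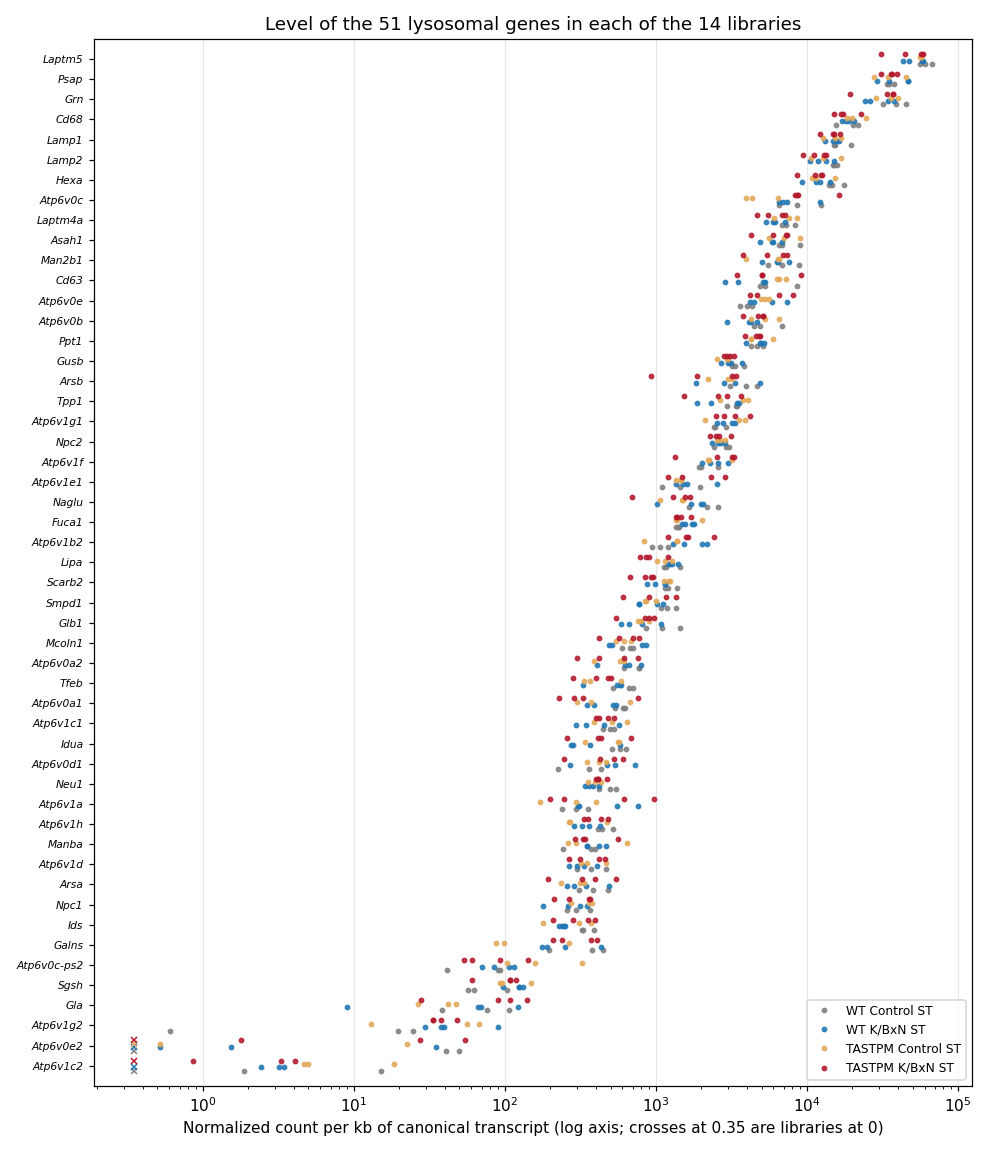
Normalized count per kb of canonical transcript (log axis) for each of the 51 lysosomal genes, 1 point per library, coloured by group, genes ordered by their mean. Laptm5, Psap and Grn lie near 33696 to 53718 per kb while the paralogs Atp6v1g2, Atp6v0e2 and Atp6v1c2 sit at the bottom, with crosses for libraries at 0, and the 4 groups overlap for most genes.

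Libraries were not stranded, so reads from overlapping or antisense genes cannot be assigned with certainty. For 13 members more than 20% of transcript bases lie inside exons of another annotated gene, among them Atp6v0b (51.5%), Lamp1 (41.7%, Grtp1), Atp6v1e1 (41.0%, Slc25a18) and Grn (39.9%, Fam171a2). The processed pseudogene Atp6v0c-ps2 (chr6:37783021-37783485) is 98.9% identical to Atp6v0c over 469 bases, and its 19.3 to 150 normalized counts, against 5707 to 23461 for Atp6v0c (chr17:24382835-24389703, minus strand), are uncertain for this reason. The same holds for Atp6v1f (97.5% over 360 bases with Gm9349), Atp6v1g1 (99.4% over 357 bases with Gm13453) and Cd63 (98.0% over 865 bases with Gm58347).

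Spread between libraries differed among the members. The median coefficient of variation within groups was 21.3% for the 49 members tested and 36.9% for all 12645 genes tested, without matching for level. In 5 members it exceeded the median of all genes, and these were Galns, Atp6v1a, Atp6v0c-ps2, Gla and Atp6v1g2. In 14 members the highest of the 14 libraries was less than 2 times the lowest, with Npc2, the soluble cholesterol carrier, the steadiest at 1.37 times. In 6 members the highest library exceeded the lowest by more than 5 times, and these were Galns, Arsb, Atp6v1a, Atp6v0c-ps2, Gla and Atp6v1g2.

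In WT mice, no lysosomal gene rose or fell after K/BxN serum by the thresholds used (limma on log2(normalized count + 1), adjusted p below 0.05 over all genes tested and an absolute log2 fold change above 1). The count was 0 of 49, where 0.00791% of all genes tested were called. The study, with DESeq2, reported far more changed genes in each genotype at the same thresholds. Because limma called almost no gene here, 0 members called does not show an absence of response. At an unadjusted p below 0.05 limma gave 4 members (7.13% of all genes), of which 3 were higher (4.77%) and 1 lower (2.36%), while on the recovered reads edgeR gave 2 (6.18% of all genes) and DESeq2 3 (7.92%). The median log2 fold change of the members was -0.21 against 0.057 over all genes. The listed genes lay mostly below 0 (27 of 33), including all 9 membrane proteins, whereas 9 of 16 pump genes lay above 0, as did 54% of all genes. The 16 pump genes, here and below, include the pseudogene Atp6v0c-ps2. Without the 4 libraries richest in monocyte and neutrophil reads, the median of the members was -0.049 and 6 of the 9 membrane proteins lay below 0. For 34 of the 49 members the 95% interval of the change lay within 1 either way on the log2 scale (27.4% of all genes), which excludes a change of 2 times or more for those genes at this level of confidence.

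Cd68, Lamp1 and Lamp2, the usual tissue markers of lysosomes in phagocytes, illustrate how far the groups overlapped. WT Control ST libraries had 26103, 18550 and 24163 normalized counts of Cd68, and WT K/BxN ST had 20502, 21655, 24372 and 22904. TASTPM Control ST had 29513, 23955 and 22089, and TASTPM K/BxN ST had 17998, 27423, 20056 and 20838. In both genotypes the ranges of Cd68 overlapped between serums, and the lowest value was that of TASTPM K/BxN ST library 1. That library was also the lowest of all 14 for Lamp1 (31188, others 32836 to 50013), Lamp2 (16746, others 18726 to 29979) and Laptm5 (80668, others 113209 to 174446).

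Atp6v1b2, the B subunit of the V1 sector that binds nucleotide beside the catalytic subunit, had the smallest p in WT. WT Control ST libraries gave 2650, 2985 and 3391 normalized counts, and WT K/BxN ST libraries gave 6187, 5704, 4311 and 3647. The groups did not overlap, K/BxN ST being higher, and libraries 1 and 2 were the highest. Its log2 fold change was 0.70 (SE 0.26, limma adjusted p = 0.668; exact permutation p = 0.0571, two-sided). Without the 4 libraries named above it was 0.41.

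Neu1, the lysosomal sialidase, went the other way in WT. WT Control ST stood at 2131, 1939 and 1650 normalized counts and WT K/BxN ST at 1495, 1638, 1325 and 1405. All K/BxN ST libraries lay lower, although library 2 and Control ST library 3 were separated by only a few counts. The change was -0.38 (SE 0.17, limma adjusted p = 0.691; exact permutation p = 0.0571, two-sided). Unlike Atp6v1b2, it was as large without the 4 libraries (-0.47), a value in which serum and sex cannot be fully told apart.

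Atp6v1g2, the neuronal form of the G subunit, rested on few reads in WT. WT Control ST gave 0.94, 30.2 and 38.2 normalized counts, and WT K/BxN ST gave 61.4, 58.5, 140 and 45.8. The groups did not overlap, but the log2 fold change of 2.40 (SE 0.98, limma adjusted p = 0.684) became 1.01 without WT Control ST library 1. For Sgsh, WT Control ST had 248, 274 and 452 counts, and WT K/BxN ST had 545, 425, 577 and 539. These groups overlapped, and the log2 fold change was 0.72 (SE 0.32, limma adjusted p = 0.684).

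Of the 49 members, 3 separated the WT groups with K/BxN ST higher (3.67% of all genes tested did so) and 2 with K/BxN ST lower (3.71%). Those above were Atp6v1b2, Atp6v1g2 and Fuca1, the lysosomal fucosidase, and those below were Neu1 and Ids, iduronate sulfatase. For Ids, WT Control ST stood at 1937, 1610 and 1640, and WT K/BxN ST at 1199, 1223, 1249 and 1139, a tight low group in which the libraries richest in monocyte and neutrophil reads lay beside the others.

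**Figure D2:**
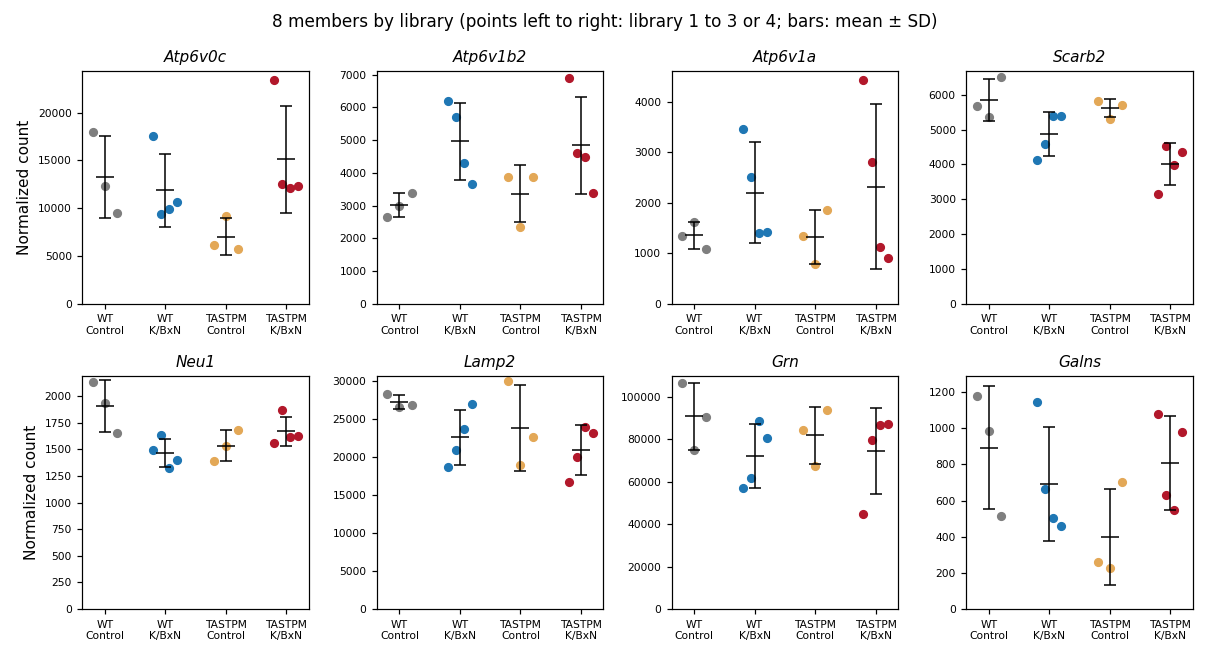
Normalized count of 8 members in each library (points, left to right library 1 to 3 or 4) with mean and SD (bars), by group. Atp6v0c is highest in TASTPM K/BxN ST library 1 (23461) and lowest in TASTPM Control ST (5707 to 9216), Atp6v1b2 and Atp6v1a are highest in libraries 1 and 2 of both K/BxN ST groups, and Scarb2 is lowest in TASTPM K/BxN ST.

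In TASTPM mice the response to K/BxN serum was also below the thresholds for every lysosomal gene, at 0 of 49 with 0% of all genes called. At an unadjusted p below 0.05 limma gave 3 members (4.22% of all genes), Atp6v0c and Galns higher (2.62%) and Scarb2 lower (1.6%), and edgeR and DESeq2 gave 3 each (4.03% and 5.46% of all genes). The median log2 fold change was -0.039 against 0.0056 over all genes, with 24 of 33 listed genes below 0 and 9 of 16 pump genes above 0 (50.4% of all genes lay above 0). As in WT, all 9 membrane proteins lay below 0, from -0.50 to -0.025, and without the 4 libraries 5 of 9 did. The median of the members was then 0.0063, and the pump genes turned too, as 11 of 16 lay below 0 without them. In TASTPM K/BxN ST libraries 3 and 4, 22 and 21 of the 33 listed genes lay above the TASTPM Control ST mean. For 38 of 49 members the 95% interval lay within 1 either way (28.4% of all genes).

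Atp6v0c had the smallest p and the only change above 1 with an interval clear of 0 besides Galns. TASTPM Control ST stood at 6192, 9216 and 5707 normalized counts, and TASTPM K/BxN ST at 23461, 12555, 12069 and 12323. All 4 K/BxN ST libraries exceeded the 3 Control ST libraries, with library 1 far above the other 3, which were nearly equal. The change on the log2 scale was 1.07 (SE 0.30, 95% interval 0.42 to 1.72, limma adjusted p = 0.964), and the exact permutation p of 0.0286 (two-sided) is the smallest that 4 against 3 libraries allow. It was 0.83 without the 4 libraries, and the adjusted p was 0.172 by DESeq2, the smallest of any member under any setting. TASTPM Control ST was the lowest of the 4 groups, as WT Control ST stood at 17973, 12319 and 9468, and WT K/BxN ST at 17510, 9392, 9949 and 10618. Red cell markers made up 0.00309 to 0.0072% of reads in TASTPM Control ST, 0.0101 to 0.0276% in TASTPM K/BxN ST and 0.00834 to 0.242% in WT Control ST, where library 3 had the most red cell reads but the lowest Atp6v0c count. WT K/BxN ST, at 0.004 to 0.0155%, overlapped TASTPM Control ST in red cell reads but not in Atp6v0c. The part of red cell reads in the Atp6v0c values was not tested.

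Scarb2 was lower in TASTPM after K/BxN serum. TASTPM Control ST stood at 5817, 5316 and 5713, and TASTPM K/BxN ST at 3158, 4525, 3990 and 4347. The groups did not overlap, and the lowest value was that of library 1. Scarb2 gave a log2 fold change of -0.50 (SE 0.17, 95% interval -0.87 to -0.13, limma adjusted p = 0.964; exact permutation p = 0.0286, two-sided) and -0.43 without the 4 libraries. These were the only 2 members that did not overlap in TASTPM, 1 above (2.67% of all genes) and 1 below (2.74%).

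Galns, a sulfatase of keratan and chondroitin sulfate breakdown, had 259, 229 and 703 counts in TASTPM Control ST against 1080, 630, 546 and 982 in TASTPM K/BxN ST. Control ST library 3 lay within the range of the K/BxN ST group. Its change was 1.16 (SE 0.45, limma adjusted p = 0.964). It was 0.74 with a score of Xist against Y-linked transcripts as a covariate. Xist was abundant in 5 libraries, which were TASTPM Control ST 1 and 2, TASTPM K/BxN ST 4 and WT K/BxN ST 3 and 4, while WT Control ST library 3 held both Xist (0.00987% of reads) and Y-linked transcripts (0.00493%). The part of sex in these differences was not tested beyond that covariate. Atp6v1b2 was 3868, 2356 and 3876 in TASTPM Control ST against 6893, 4606, 4474 and 3376 in TASTPM K/BxN ST. These groups overlapped, and its log2 fold change of 0.51 (SE 0.26, limma adjusted p = 0.964) was 0.24 without the 4 libraries and 0.25 with the sex-linked score.

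**Figure D3:**
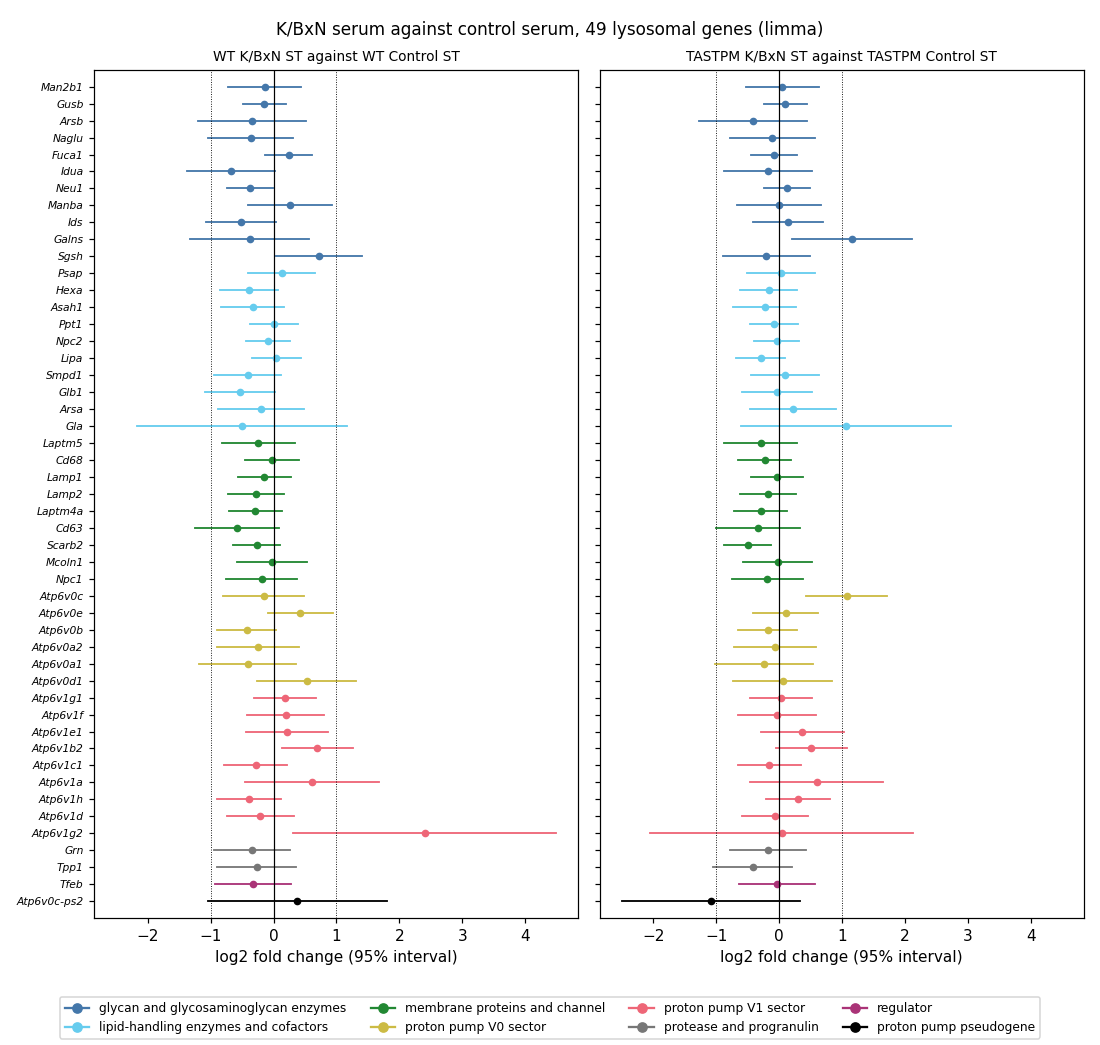
log2 fold change with 95% interval (limma) of the 49 members tested, for K/BxN against control serum, in WT (left) and TASTPM (right), coloured by role; dotted lines mark a change of 1. All 9 membrane proteins lie below 0 in both panels, pump genes scatter on both sides, the intervals of Atp6v0c and Galns in TASTPM and of Atp6v1b2, Atp6v1g2 and Sgsh in WT lie above 0, and those of Scarb2 in TASTPM and Neu1 in WT lie below 0.

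The difference between the genotypes in the response to serum (the interaction of genotype and serum) was called for 0 of 49 members and 0% of all genes. At an unadjusted p below 0.05 limma gave 2 members, Atp6v0c and Galns, both with a more positive response in TASTPM (3.04% of all genes, 1.42% more positive and 1.63% more negative), edgeR 2 (2.6%) and DESeq2 3 (3.18%). Atp6v0c responded by 1.23 more in TASTPM than in WT on the log2 scale (SE 0.43, limma adjusted p = 0.999) and by 1.14 more without the 4 libraries. Galns responded by 1.54 more (SE 0.63, limma adjusted p = 0.999), or 0.90 with the sex-linked score. For Neu1 the difference was 0.50 (SE 0.24) and for Atp6v1h, the regulatory H subunit, 0.69 (SE 0.34), both with a limma adjusted p of 0.999. The median over the members was 0.11 against -0.054 over all genes, but it turned to -0.034 without TASTPM Control ST library 2 and to -0.0036 without WT Control ST library 1. Only 21 of 49 intervals lay within 1 either way (12.1% of all genes), so for most members a difference of 2 times between the genotypes' responses was not excluded at this depth of replication.

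Under control serum, TASTPM and WT microglia differed in no member by the thresholds (0 of 49, 0% of all genes). At an unadjusted p below 0.05 limma gave 2 members, Atp6v0c and Galns, both lower in TASTPM (5.57% of all genes, 3.41% higher and 2.16% lower), edgeR 2 (4.6%) and DESeq2 3 (5.72%). The log2 fold change of Atp6v0c was -0.90 (SE 0.32, limma adjusted p = 0.754; exact permutation p = 0.1, two-sided, the smallest that 3 against 3 libraries allow). It shares the TASTPM Control ST libraries with the serum comparison above, so the 2 results are not independent. Galns gave -1.28 (SE 0.48, limma adjusted p = 0.782) and -0.84 with the sex-linked score. Atp6v1g2 differed by 2.12 (SE 1.04, limma adjusted p = 0.883), which was 0.73 without WT Control ST library 1. Tfeb stood at 856.6, 783.8 and 1374 in TASTPM Control ST and 1664, 1226 and 1545 in WT Control ST, which overlap, with a log2 fold change of -0.59 (SE 0.30, limma adjusted p = 0.886).

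The enzymes and cofactors mostly lay lower in TASTPM Control ST (18 of 23 below 0), and the pump genes in 7 of 16. Of all genes, 53.2% lay above 0. The difference between these sets was not tested. The median of all members was -0.093 against 0.042 over all genes, and -0.021 without TASTPM Control ST library 2. Members with no overlap between the groups were Atp6v0e and Atp6v0c-ps2 above (4.97% of all genes) and Atp6v0c, Naglu, Gusb and Smpd1 below (4.71%). Naglu, an enzyme of heparan sulfate breakdown, had 3829, 2728 and 3856 counts in TASTPM Control ST and 6609, 4240 and 5600 in WT Control ST. Smpd1, acid sphingomyelinase, had 2424, 2084 and 2051 against 2849, 2614 and 3287. For both, the lowest WT Control ST library lay close above the highest TASTPM Control ST library. For 32 of the 49 members the interval lay within 1 either way (25.7% of all genes).

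Under K/BxN serum, TASTPM and WT microglia again showed no call. None of the 49 members was called (0% of all genes), 1 was lower in TASTPM at an unadjusted p below 0.05 by limma (1.91% of all genes, 1% higher and 0.902% lower) and 1 each by edgeR (1.46%) and DESeq2 (1.92%), and no member separated the groups (1.16% of all genes above, 0.672% below). By limma that member was Lipa, lysosomal acid lipase, with 2684, 2553, 2326 and 3602 counts in TASTPM K/BxN ST, against 3581, 3673, 3798 and 4167 in the WT group. Of the TASTPM libraries only library 4 reached the WT range. Lipa gave a change of -0.46 (SE 0.17, limma adjusted p = 1.00; exact permutation p = 0.0571, two-sided). The intervals of 40 members lay within 1 either way (38% of all genes). The other members with the smallest p, Scarb2 (-0.29, SE 0.16), Arsb (-0.55, SE 0.37) and Cd63 (0.39, SE 0.29), overlapped between the groups, and Arsb was at -0.16 without TASTPM K/BxN ST library 1. Without the 4 libraries richest in monocyte and neutrophil reads, Lipa was at -0.46, Scarb2 at -0.37 and Arsb at -0.30, while Cd63 turned to -0.036.

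Library by library, the K/BxN ST groups were uneven in these genes. Each library was set against the mean of its genotype's Control ST libraries. For the 33 listed genes the median log2 ratio was -0.48, -0.29, -0.10 and -0.028 in libraries 1 to 4 of WT K/BxN ST. The corresponding TASTPM libraries had -0.53, -0.028, 0.099 and 0.046. For the 9 tested V1 genes it was 0.49, 0.13, 0.060 and -0.021 in WT, and in TASTPM 0.46, 0.40, -0.14 and -0.13. The V1 sector was picked out after these values were seen, and the other pump sets had lower medians in library 1. For the 6 tested V0 genes the median was 0.070, -0.12, -0.24 and -0.0069 in WT, and in TASTPM 0.10, 0.13, 0.18 and -0.0011. Pump subunits and assembly factors without the Atp6v prefix stood at -0.23 and -0.30 in library 1 of WT and TASTPM K/BxN ST. Library 1 of each K/BxN ST group, which carried the highest share of monocyte and neutrophil reads, thus had both the lowest median over the listed genes and the highest over the V1 genes in its group, and the median over all genes in the 2 libraries was 0.11 and 0.055.

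The catalytic V1 subunit is given as an example, chosen after its values were seen. In WT K/BxN ST, Atp6v1a stood at 3472, 2521, 1394 and 1427, and in TASTPM K/BxN ST at 4429, 2802, 1134 and 916, against 1093 to 1619 in WT Control ST and 787 to 1851 in TASTPM Control ST. Libraries 1 and 2 of both groups exceeded all Control ST libraries, and libraries 3 and 4 lay within their range. Not all V1 genes did so, as Atp6v1c1 had a log2 ratio of -0.74 in library 1 of WT K/BxN ST and of -0.34 in that of TASTPM K/BxN ST. Grn was lowest in library 1 of each group, with 57003, 61589, 88726 and 80735 counts in WT K/BxN ST against 75036 to 106658 in WT Control ST. TASTPM K/BxN ST had 44810, 79510, 86828 and 87053, against 67288 to 93684 in TASTPM Control ST. Arsb, arylsulfatase B, was at 3851 in TASTPM K/BxN ST library 1 and at 7835 to 14108 in libraries 2 to 4. Psap did not share this pattern, with 124054 in WT K/BxN ST library 1, the highest of all 14, and 96313 in TASTPM K/BxN ST library 1, within a range of 73452 to 119215 over the other TASTPM libraries. The part of the monocyte and neutrophil reads in these values was not tested; with their share as a covariate the median of the members in WT after serum was -0.075.

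**Figure D4:**
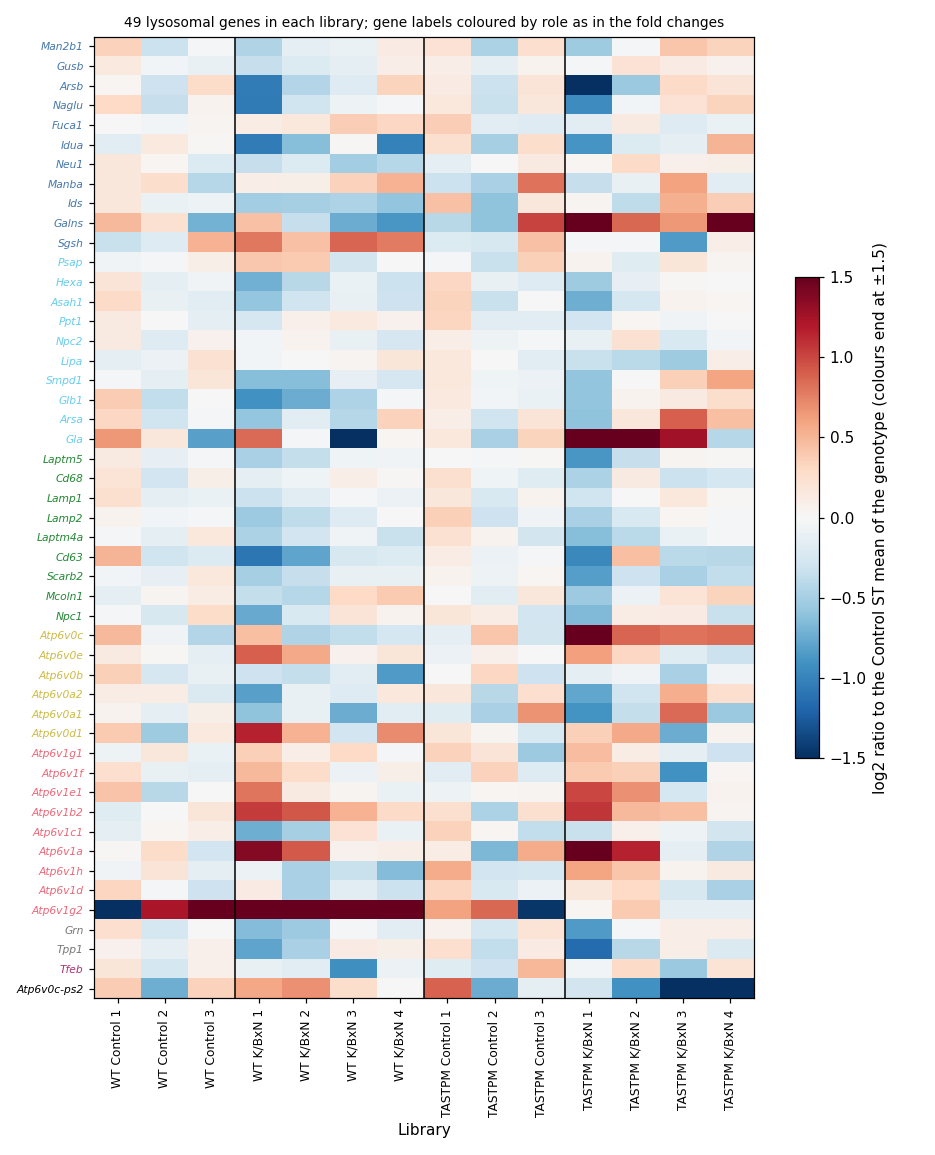
Each of the 49 members tested as log2 ratio to its genotype's Control ST mean, 1 column per library, genes in rows by role (label colours as in the plot of fold changes). Library 1 of both K/BxN ST groups shows mostly blue (lower) enzymes and membrane proteins, with Galns and Gla among the exceptions, and red (higher) V1 genes such as Atp6v1a and Atp6v1b2, while Atp6v1c1 is blue. Colours end at a ratio of 1.5 either way.

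**Figure D5:**
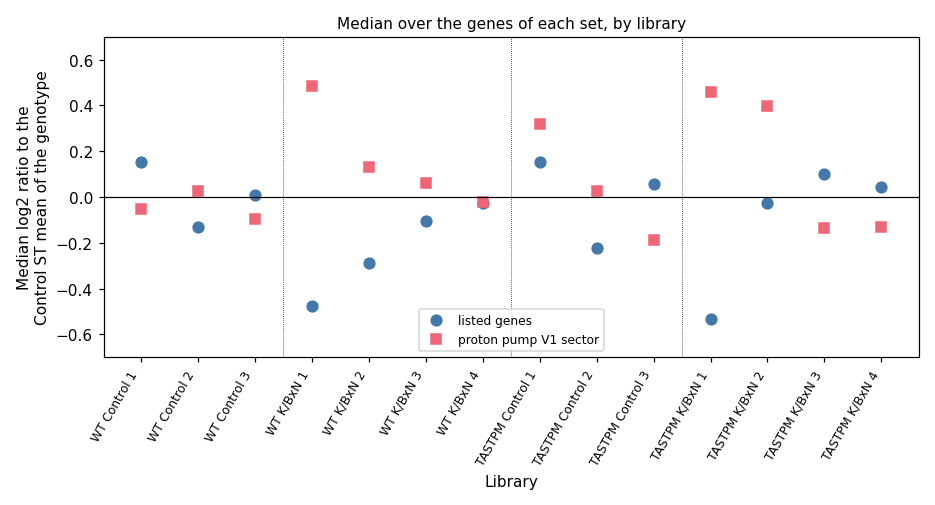
Median log2 ratio to its genotype's Control ST mean (vertical axis) over the 33 listed genes (circles) and over the tested V1 genes of the proton pump (squares), by library. The sets lie apart most in library 1 of WT K/BxN ST (-0.48 and 0.49) and of TASTPM K/BxN ST (-0.53 and 0.46), where the V0 genes, not drawn, had medians of 0.070 and 0.10.

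Genes of the wider lysosomal system gave no calls either. In 5 further lists (other lysosomal enzymes and activators, other membrane transporters, pump subunits and assembly factors without the Atp6v prefix, the TFEB family with nutrient sensing, and delivery by mannose-6-phosphate and sortilin receptors) 77 genes were tested and 0 were called in any comparison, where 0.00791% of all genes were called in WT after serum and 0% in the other comparisons. In WT after serum, 14 of 17 other enzymes and 16 of 18 other transporters lay below 0, with medians of -0.34 and -0.32, where 54% of all genes lay above 0. Without the 4 libraries 12 of 17 and 13 of 18 did, with medians of -0.090 and -0.10. In WT the medians were 0.20 for the TFEB family and nutrient sensing (10 of 17 above 0), -0.073 for the pump and assembly factors (5 of 11) and 0.071 for the delivery receptors (8 of 14). Without the 4 libraries they were 0.10, 0.087 and -0.0043. By library, the TFEB and nutrient-sensing list stood at 0.68 in WT K/BxN ST library 1 and at -0.0050, 0.10 and 0.099 in libraries 2 to 4. In TASTPM, 12 of 17 and 12 of 18 of the same lists lay below 0 (50.4% of all genes lay above 0), but without the 4 libraries the direction turned, with 11 of 17 and 12 of 18 above 0 and medians of 0.096 and 0.14, against -0.15 and -0.16 with them. The medians of the other 3 lists in TASTPM were -0.0096, 0.042 and -0.0013 in the same order, and -0.10, 0.20 and 0.056 without the 4 libraries. By the smallest p, the genes to name were Rraga, a GTPase that brings mTORC1 to the lysosome (0.60, SE 0.21, limma adjusted p = 0.629), and Dmxl2, a V-ATPase assembly factor (4.11, SE 1.61, limma adjusted p = 0.668), in WT, and Mtor (1.25, SE 0.54) and Gga1, a sorting adaptor (0.64, SE 0.29), in TASTPM, both with a limma adjusted p of 0.964. Under control serum, Mfsd8, a lysosomal membrane transporter, was lower in TASTPM than in WT by 1.17 on the log2 scale (log2 fold change -1.17, SE 0.36, limma adjusted p = 0.712), and its libraries did not overlap. Slc66a1, an exporter of cationic amino acids, gave -0.80 (SE 0.34, limma adjusted p = 0.832) in that comparison. In the interaction Mtor gave 1.93 (SE 0.76) and Rraga -0.61 (SE 0.30), both with a limma adjusted p of 0.999. Under K/BxN serum Rraga was at -0.45 (SE 0.20) and Vma21, a V-ATPase assembly factor, at 0.34 (SE 0.22) in TASTPM against WT, both with a limma adjusted p of 1.00.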

How the data were processed

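Bulk RNA-seq was analysed from 14 libraries of sorted spinal microglia. Per the labels and the study's methods, the authors amplified cDNA with SMART-Seq v4, aligned reads with HISAT2 2.1 to GRCm39 (mm39), counted them with featureCounts 1.5.2 and ran FastQC 0.11.9, Picard and DESeq2. The deposited values, named here normalized counts, are a normalized signal: read counts divided by 1 size factor per library. Whole reads could be recovered for 100% of values (tolerance 0.001). Of 14336 entries, 7 repeats were left out. Only for TASTPM K/BxN ST did the column numbers of a whole group match those of its labels. In the other groups some numbers occur in both, but the sets differ, so their libraries are numbered in column order.

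A total of 12645 genes had at least 10 reads in at least 7 libraries. limma 3.58.1 (R 4.3.3, with a mean-variance trend) was run on log2(normalized count + 1) over all 14 libraries with 4 group means, with Benjamini-Hochberg adjustment over all genes tested; a pseudocount of 1 understates changes of low genes. Fold changes are on this scale. Two-sided exact permutation tests were added for single genes, with a smallest p of 0.0286 (4 against 3 or 4 against 4) or 0.1 (3 against 3). edgeR 4.0.16 and DESeq2 1.42.0 on recovered reads, other scalings, pseudocounts, filters, covariates and left-out libraries were alternatives. The scripts were tested on simulated data. Transcript lengths and starts came from GENCODE vM39; near-identical transcripts were found with blastn 2.17.0. Gene lists and members were chosen with earlier results of these data known. Fold changes with statistics were given for the 4 members with the smallest unadjusted p in each comparison and for the 2 such genes of the wider lists, and members whose groups did not overlap were named; genes named for their library pattern (Atp6v1a, Grn, Arsb, Psap, Cd68, Lamp1, Lamp2 and Laptm5) were chosen after their values were seen. An allele of the TASTPM line is not reported here.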

Additional observations from a re-analysis of the deposited data

Results flagged for a closer look

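In groups of 4 libraries, the highest or lowest value of 5 of 102 member and group pairs (4.90%) lay further from the rest than Dixon's 95% critical value allows, where chance marks about 1 in 20. Among genes that passed the filter on low counts, 4 of 98 pairs of members (4.08%) and 5.95% of pairs over all genes were marked, and the fifth mark was Atp6v1c2, which did not pass. Grn in TASTPM K/BxN ST library 1 stood at 44810 normalized counts, with the other 3 between 79510 and 87053. Atp6v0c in the same library stood at 23461, with the others between 12069 and 12555. Tfeb in WT K/BxN ST library 3 stood at 776, with the others between 1300 and 1376. Sgsh in TASTPM K/BxN ST library 3 stood at 266, with the others between 470 and 517. Atp6v1c2 in WT K/BxN ST library 3 was at 0, with the others between 5.42 and 7.63, which are only a few reads.

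For Neu1 and Atp6v1h, every WT K/BxN ST library lay below and every TASTPM K/BxN ST library above the Control ST mean of its genotype, as was so for 2 of 49 members and 1.27% of all 12645 genes tested. The opposite pattern was seen in 0 members and 1.54% of genes. The log2 ratios of Neu1 were -0.52 to -0.21 in WT, against 0.031 to 0.28 in TASTPM, and the interaction was 0.50 (SE 0.24, limma adjusted p = 0.999). Those of Atp6v1h were -0.65 to -0.089 in WT, against 0.048 to 0.59 in TASTPM, and the interaction was 0.69 (SE 0.34, limma adjusted p = 0.999). Neither passed the test of the difference itself.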

How the results depend on the processing

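The count of members called was 0 under all 27 alternatives in each of the 5 comparisons, 14 of which left out 1 library each, and the smallest adjusted p of any member was 0.172 (DESeq2, Atp6v0c). The main fit called 0.00791% of all genes in WT after serum and 0% in the other comparisons. For the alternatives the share of all genes called is not given here. These counts of 0 therefore do not show that the lysosomal genes were stable. No value of the interaction was computed from only the groups compared, since it needs all 4. Without the 4 libraries richest in monocyte and neutrophil reads, the median log2 fold change of the members in WT after serum was -0.049, and with the share of those reads as a covariate it was -0.075, against -0.21. In TASTPM after serum it turned to 0.0063 without them, against -0.039. Leaving out each library in turn, the median ranged from -0.27 to -0.10 in WT after serum (-0.10 without K/BxN ST library 1 and -0.14 without Control ST library 1). In TASTPM after serum it ranged from -0.16 (without Control ST library 2) to 0.012 (without Control ST library 1), and it moved by over 1.5 times without any 1 of the K/BxN ST libraries too (-0.13 to -0.015). For the interaction it ranged from -0.034 (without TASTPM Control ST library 2) to 0.19 (without TASTPM K/BxN ST library 1), against 0.11. It was -0.0036 without WT Control ST library 1, 0.022 without WT K/BxN ST library 1, and 0.034, 0.050 and 0.065 without TASTPM K/BxN ST libraries 2, 3 and 4. Under control serum it ranged from -0.17 (without TASTPM Control ST library 3) to -0.021 (without TASTPM Control ST library 2), against -0.093. It was -0.15 without TASTPM Control ST library 1 or WT Control ST library 2, and -0.044 without WT Control ST library 1. Under K/BxN serum it ranged from -0.080 (without WT library 1) to 0.020 (without TASTPM library 1), against -0.038. It was -0.068 without TASTPM library 2, and -0.013 and -0.020 without WT libraries 3 and 4. With reads per library total as the scaling, the median was -0.019 in TASTPM after serum, 0.071 for the interaction and -0.043 under control serum. With the sex-linked score these were -0.024, 0.16 and -0.17, and -0.021 under K/BxN serum, and with the marker share as a covariate TASTPM after serum was at -0.013. Named members were those with the smallest p in these same data, so few turns of direction were to be expected. Of 536 changes of named members under alternatives, 1 turned its direction: Cd63 in TASTPM K/BxN ST against WT K/BxN ST was -0.036 without the 4 libraries. The cause was not tested in any of these. Members at an unadjusted p below 0.05 in WT after serum numbered 4 (7.13% of all genes), against 0 without WT Control ST library 1 (5.8%), 1 without WT K/BxN ST library 1 (4.86%), 1 without the 4 libraries (4.25%) and 7 with the sex-linked score (10.3%). In TASTPM after serum they numbered 3 (4.22%), against 5 without K/BxN ST library 4 (6.56%) and 1 with the sex-linked score (2.55%). Under control serum they numbered 2 (5.57%), against 0 without WT Control ST library 1 (5.03%), 1 without TASTPM Control ST library 2 (5.1%), 4 without library 3 of TASTPM Control ST (5.53%) or of WT Control ST (7.35%), 7 without the 4 libraries (6.1%) or with the covariate (7.9%) and 5 with the sex-linked score (6.64%). In the interaction they numbered 2 (3.04%), against 5 without WT Control ST library 3 (4.66%), 4 without TASTPM Control ST library 3 (3.01%), without the 4 libraries (3.91%), with the covariate (4.53%) or with the sex-linked score (3.6%), and 1 without any 1 of TASTPM Control ST library 2, TASTPM K/BxN ST library 4, WT Control ST libraries 1 and 2, and WT K/BxN ST libraries 3 and 4 (2.88 to 4.4%). Under K/BxN serum they numbered 1 (1.91%), against 0 without the 4 libraries (3.95%), 3 with the covariate (3.15%) or without WT library 1 (2.73%), and 2 without TASTPM library 1 (2.5%) or 3 (1.54%). No paired analysis was possible because the groups share no replicate numbers in the labels. With 3 or 4 libraries a group, changes of single members below about 2 times rest on few values.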
